A study of Mus musculus with 28 samples.

Results

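The genes described here are 44 genes of the cell cycle and of DNA replication. They were listed by name, for what their products do, with earlier results of these data known. All 44 are among the 23453 genes counted over exons, and also among the 20422 genes counted over introns, in 28 single mouse cells. They fall into 7 groups by role. Of these, 5 are G1 cyclins and kinases, 5 belong to the G1/S switch, 4 are inhibitors of cyclin-dependent kinases (CDKs), 9 act in origin licensing, 4 in DNA synthesis, 7 in the G2/M core and 10 in the mitotic apparatus.

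By the sample labels, the cells are 8 astrocytes and 12 neurons from primary cultures of C57/BL6 cortex, harvested by pipette, and 8 interneurons from acute slices of C57/BL6/N cortex, harvested by patch clamp pipette. No animal, litter or culture is named for any cell, and no cell was treated. The protocol in the labels describes a perfused 3-month-old male for the cultured cells. The study's methods give such a male for its fixed brain sections. For mouse cultures, the methods and the reporting summary describe embryonic brain cells. They do not say which cultures gave the RNA, so the age of the cultured cells is not settled here. Cultured cells and interneurons were also prepared with different library kits and sequencers.

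The codes that name the count columns are found in no sample label. No column could therefore be given a labelled cell type, and no test between the blocks was made. The columns are described in 3 blocks. Block 1 holds BRP564 and BRP566 to BRP572 (8 cells), block 2 holds the other 12 BRP cells, and block F holds 8 cells whose codes begin with F. The blocks are presumed to be the astrocytes, the neurons and the interneurons from their size and their marker genes. In block 1, all 8 astrocyte markers were present in every cell, and 2 to 5 of 8 neuronal markers. In block 2, 7 or 8 of the 8 neuronal markers were present in every cell. In block F, 3 to 6 of the 8 neuronal markers and 1 to 4 of the 6 GABAergic markers were present per cell.

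A cell passes through G1, replicates its DNA in S phase, and divides its chromosomes in mitosis after G2. D-type cyclins with CDK4 and CDK6 release E2F factors from the retinoblastoma protein, E2F switches on the genes of replication, and a later wave of genes read in G2 and mitosis builds the spindle and its checkpoint. Neurons leave this cycle for good when they differentiate, whereas astrocytes and oligodendrocyte precursors can still divide, above all in culture.

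Levels are exonic counts per 1000000 exonic counts of the cell (CPM). A gene was called present in a cell at 5 CPM or more and at least 10 counts. A cell was called mitotic in pattern when at least 9 of the 17 genes of the G2/M core and the mitotic apparatus were present, and S-phase in pattern when at least 7 of the 13 genes of origin licensing and DNA synthesis were. These names describe transcripts that were present together, and no cell was staged in another way.

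Exonic counts per cell ranged from 12969692 to 19798892 in block 1, from 17483754 to 26770944 in block 2 and from 838343 to 14831505 in block F. By counting error alone, a count of 0 therefore allowed a level of up to 0.231 CPM (3 counts) in blocks 1 and 2, and up to 3.58 CPM in the shallowest cell, F16. The counts are of reads and not of unique molecules, so a transcript could be missed at higher levels too. The median share of intronic counts was 8.75% in block 1, 15.7% in block 2 and 50.4% in block F. The cells of block F held fewer genes, with 621 to 3176 genes present per cell, against 7680 to 9142 in block 1 and 6460 to 8014 in block 2.

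Cell cycle transcripts were present together in all 8 cells of block 1, in 3 of the 12 cells of block 2 and in no cell of block F. The mitotic pattern was met by 8 of the 28 cells. They were BRP566, BRP567, BRP568, BRP570, BRP571 and BRP572 of block 1, and BRP529 and BRP541 of block 2. The S-phase pattern was met by 11 cells, namely the 8 cells of block 1 and BRP529, BRP541 and BRP542. All 8 cells with the mitotic pattern also had the S-phase pattern. BRP564, BRP569 and BRP542 had the S-phase pattern and were 1 gene short of the mitotic one, with 8 of 17 genes each. If 12 of the 17 genes were asked for in place of 9, BRP567 and BRP541 alone would meet the mitotic pattern. At 10 CPM in place of 5, BRP571 would lose it with 7 genes, and at 1 CPM BRP564 (11 genes) and BRP569 (13 genes) would gain it.

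**Figure D1:**
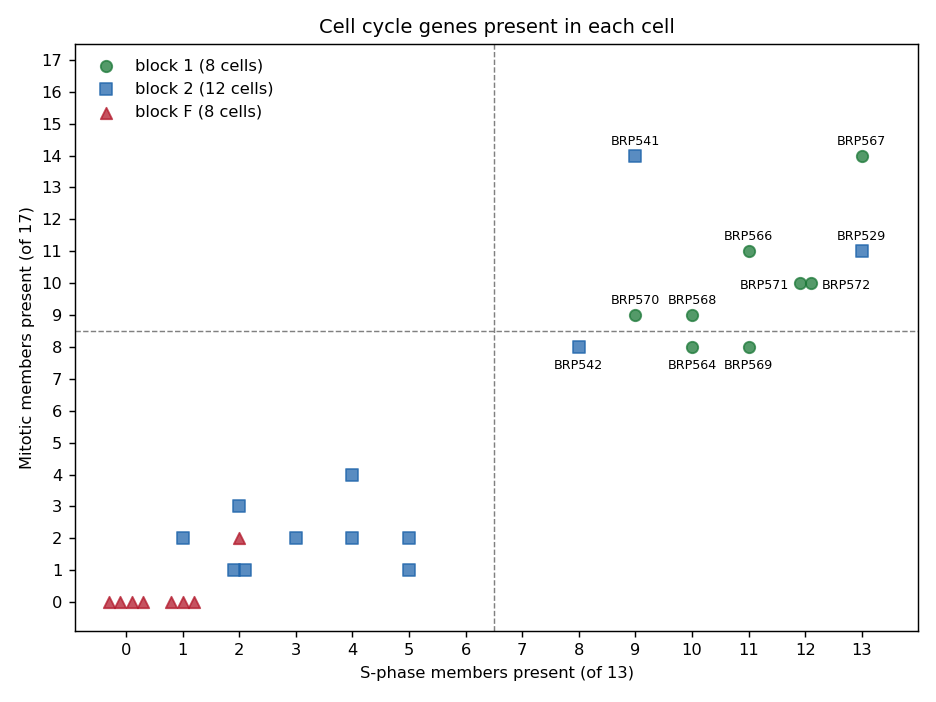
Number of S-phase genes (of 13, x axis) and mitotic genes (of 17, y axis) present in each of the 28 cells. Circles are block 1, squares block 2 and triangles block F, cells at the same point are set side by side, and dashed lines mark the limits of 7 and 9 genes. The 11 cells at 8 or more mitotic genes stand apart at 5 CPM from the other 17 cells, which had at most 4 mitotic and 5 S-phase genes, but at 10 CPM BRP564 falls to 2 mitotic genes, below BRP528 with 3.

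These cells and the others were separated at 5 CPM. Among the 17 remaining cells, BRP528 had the most mitotic genes with 4 of 17, and no remaining cell had more than 5 of 13 S-phase genes. The separation in mitotic genes was lost at 10 CPM, where BRP564 had 2 and BRP528 had 3, and it narrowed at 1 CPM, where BRP542 had 8 and BRP536 had 6. In block 1 the number of mitotic genes present ran from 8 to 14 (median 9.5) and of S-phase genes from 9 to 13 (median 11). In block 2 the medians were 2 and 4. In block F, 7 cells had no mitotic gene present and F24 had 2.

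Over the whole list, 34 of the 44 genes (77.3%) were present in 4 or more of the 8 cells of block 1, where 38.4% of all genes were. In block 2, 13 of 44 (29.5%) were present in 6 or more of the 12 cells, against 32.9% of all genes. In block F the count was 0 of 44, against 4.26% of all genes. The median of the genes' median levels was 15.6 CPM in block 1, 0.197 CPM in block 2 and 0 in block F, and over all genes it was 0.0524 CPM, 0 and 0. By the share of genes present, the list thus lay above the background in block 1 and near or below it in the other blocks. By median level it lay above all genes in block 2 as well, though at only 0.197 CPM.

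**Figure D2:**
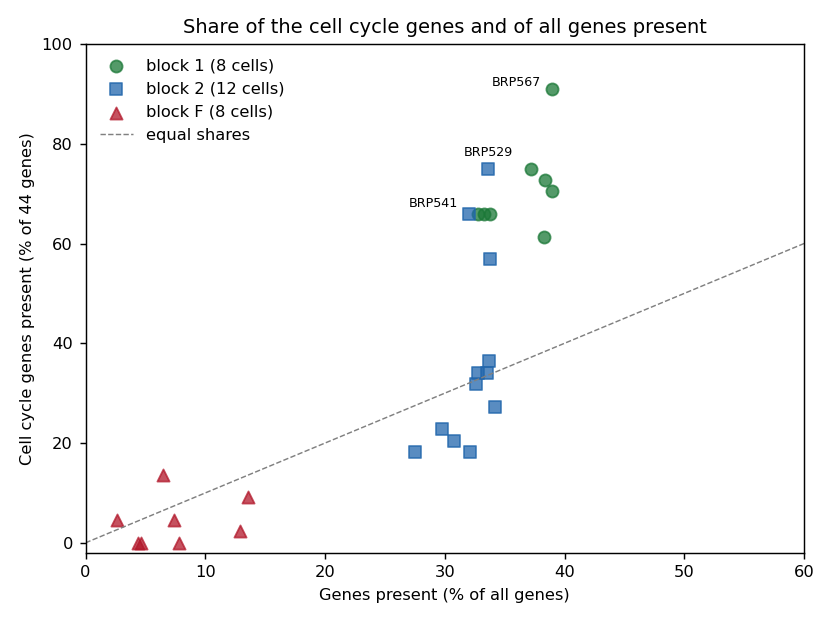
Share of the 44 cell cycle genes present in each cell (y axis, %) against the share of all 23453 genes present (x axis, %), with a dashed line of equal shares. The cells of block 1 lie between 61.4% and 90.9% of the cell cycle genes, BRP529 (75.0%), BRP541 (65.9%) and BRP542 (56.8%) of block 2 lie beside them, and block F does not pass 13.6%.

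The D-type cyclins, which carry growth signals into G1, were present in all 8 cells of block 1, and Ccnd1, Ccnd2 and Ccnd3 in 11, 12 and 7 of the 12 cells of block 2. Ccnd2 was the most widely present gene of the list, together with Pcna and Cdkn1b, each in 22 of the 28 cells. It ran from 401 to 1205 CPM (median 709) in block 1 and from 80.3 to 637 CPM (median 227) in block 2. In block F it was present in F24 at 332 CPM and in F2 at 9.94 CPM, and the other 6 cells were at or below 2.39 CPM. The ranges of block 1 and block 2 overlapped, and Ccnd2 was thus not limited to cells with the mitotic or S-phase pattern.

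Ccnd1 ran from 155 to 765 CPM (median 508) in block 1, from 2.43 to 173 CPM (median 108) in block 2 and from 0 to 1.48 CPM in block F. The lowest cell of block 1, BRP564, fell inside the range of block 2, and in block F no cell had Ccnd1 present. Ccnd3 ran from 70.3 to 304 CPM (median 164) in block 1 and from 0.205 to 234 CPM (median 11) in block 2. The highest values of Ccnd3 in block 2 were 234 CPM in BRP529 and 80.5 CPM in BRP541, the cells with the mitotic pattern, followed by 33.1 CPM in BRP536. In block F, F2 alone had Ccnd3 present, at 484 CPM. For a comparison between genes, counts were divided by the annotated exon length and rescaled to a sum of 1000000 per cell. On this scale the median levels of block 1 were 312 for Ccnd1, 231 for Ccnd2 and 56.1 for Ccnd3.

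The kinases that pair with these cyclins were low. Cdk4 had a median of 4.11 CPM in block 1 and 2.98 CPM in block 2, and was present in 3 and 2 cells there. F16 stood alone with 332 CPM of Cdk4, from 278 counts. Cdk6 was present in 1 cell, BRP569, at 11 CPM. Its counts fell almost wholly in introns, 6256 against 221 in exons over all cells, and BRP570 (2867) and BRP567 (1342) held the most. Exonic levels of Cdk6 therefore understate the reads that fall within the gene.

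**Figure D3:**
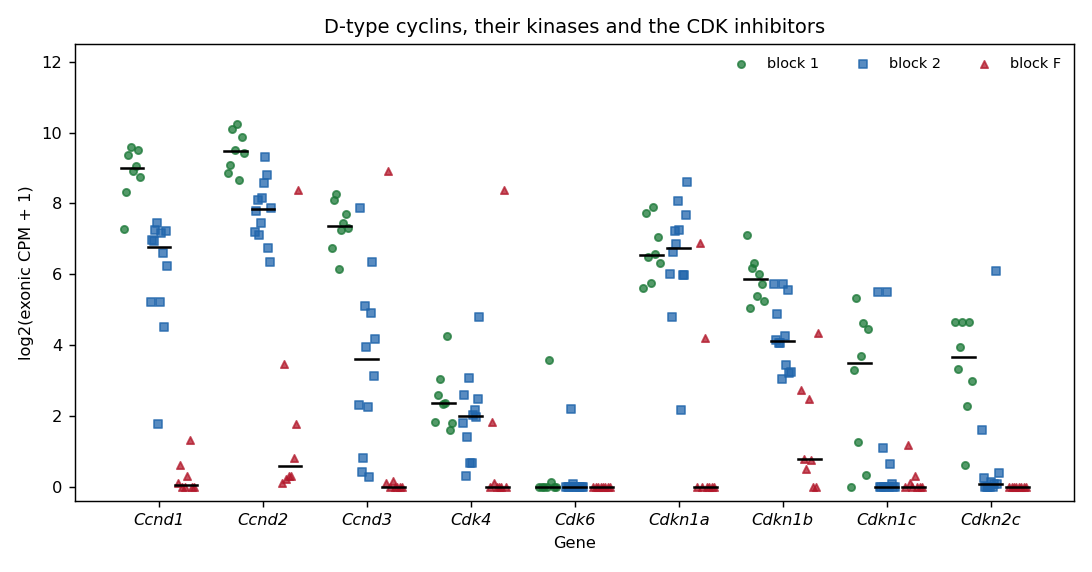
Level of the D-type cyclins, Cdk4, Cdk6 and the CDK inhibitors in each cell, as log2(exonic CPM + 1) on the y axis, with a point for each cell (circles block 1, squares block 2, triangles block F) and a bar at the block median. Ccnd1 and Ccnd2 lie high in blocks 1 and 2 and near 0 in most of block F, and Cdkn1a has like medians in blocks 1 and 2. Cdk6 is at or near 0 except in BRP569 (11 CPM) and BRP535 (3.53 CPM).

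The G1/S switch followed the D cyclins only in part. Rb1, which encodes the retinoblastoma protein that holds E2F in check, ran from 67.1 to 166 CPM (median 92.7) in block 1 and from 0 to 209 CPM (median 19.3) in block 2. The highest cell was BRP529, whereas BRP541 had only 0.284 CPM. Ccne2, an E-type cyclin that drives entry into S phase, was present in all 8 cells of block 1, from 8.26 to 118 CPM (median 25.3). In block 2 it had a median of 1.30 CPM, and BRP529 stood at 107 CPM while the other 11 cells were at or below 11.3 CPM. Cdk2, the kinase of the E cyclins, was present in 6 cells of block 1 (median 11.2 CPM) and in BRP529 (32.5 CPM) of block 2. Ccne1, the other E-type cyclin, went the other way, with a median of 4.00 CPM in block 1 and 11 CPM in block 2. E2f1, an activating E2F factor, was present in 4 cells of block 1 and 5 of block 2. No gene of this group was present in block F.

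The CDK inhibitors were present beside the cyclins. Cdkn1a, which encodes p21, ran from 47.7 to 237 CPM (median 91.3) in block 1 and from 3.52 to 387 CPM (median 107) in block 2, with the highest value in BRP543. Its ranges overlapped. BRP529 (26.9 CPM) and BRP541 (62.3 CPM) lay in the lower part of block 2, above BRP539 at 3.52 CPM. Cdkn1b, which encodes p27, ran from 32.3 to 138 CPM (median 57.2) in block 1 and from 7.28 to 52.3 CPM (median 16.2) in block 2. BRP564, the cell of block 1 with the lowest summed level of the mitotic genes (113 CPM), had the highest Cdkn1b and the lowest Cdkn1a of its block. In block F, Cdkn1a was present in F2 (116 CPM) and F7 (17.3 CPM) and Cdkn1b in F24 (19.4 CPM) and F1 (5.66 CPM).

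Cdkn1c, which encodes p57, was sparser, with 0 to 39.2 CPM in block 1 (median 10.3) and 0 in 7 of the 12 cells of block 2. BRP528 (43.9 CPM) and BRP538 (43.8 CPM) were the highest of all 28 cells. Cdkn2c, which encodes the CDK4 and CDK6 inhibitor p18, ran from 0.540 to 24.3 CPM in block 1 (median 11.7). In block 2 it was present in BRP541 alone, at 66.5 CPM, and it was 0 in every cell of block F.

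In origin licensing, Cdc6 and Cdt1 load the MCM helicase onto DNA in G1. Of its 9 genes, 8 were present in 4 or more cells of block 1, where 38.4% of all genes were. The summed level there ran from 161 to 1122 CPM (median 427). In block 2, only Mcm4 was present in 6 or more of the 12 cells, where 32.9% of all genes were. The summed level of block 2 ran from 0.523 to 1523 CPM (median 93.0), a range that enclosed that of block 1. Mcm4 ran from 0.0505 to 448 CPM (median 91.0) in block 1 and from 0 to 514 CPM (median 24.6) in block 2. Mcm6 ran from 8.08 to 380 CPM (median 76.0) in block 1. In block 2, Mcm6 was 478 CPM in BRP529 and 137 CPM in BRP541, followed by 85.1 CPM in BRP543, and it was 0 in 5 cells.

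Mcm2, Mcm3, Mcm5 and Mcm7, further subunits of the helicase, were present in 6 to 8 cells of block 1 and in 3 to 5 of block 2. Cdt1 had its highest levels in BRP567 (150 CPM) and BRP529 (138 CPM), and its inhibitor Gmnn in BRP529 (265 CPM) and BRP567 (115 CPM). Cdc6 was the least widely present of the group. It was present in BRP567 (21.1 CPM) and BRP564 (11.7 CPM) of block 1 and in BRP529 (10.6 CPM) of block 2, and was below 5 CPM in the other 25 cells.

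Of the genes of DNA synthesis, Pcna, the sliding clamp of the DNA polymerases, was present in every cell of blocks 1 and 2. It ran from 202 to 1220 CPM (median 359) in block 1 and from 44.9 to 808 CPM (median 96.3) in block 2. The highest cells were BRP567 and BRP529, and 9 of the 12 cells of block 2 lay below the lowest cell of block 1. In block F, Pcna was present in F2 (157 CPM) and F24 (71.3 CPM) and 0 in the other 6. Named pseudogenes of Pcna exist, so its reads can be shared with them.

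Rrm1 and Rrm2, the subunits of ribonucleotide reductase, which makes deoxynucleotides, were present in all 8 cells of block 1. Rrm1 ran from 16.1 to 118 CPM (median 93.7) there and from 0 to 693 CPM (median 9) in block 2. BRP529 (693 CPM) and BRP541 (341 CPM) were above every cell of block 1. Rrm2 had a median of 34.8 CPM in block 1 and 0.203 CPM in block 2, where BRP529 reached 212 CPM. Its highest value was in block F, with 7048 CPM from 5909 counts in F16, while the other 7 cells of block F were at 0. Tyms, the thymidylate synthase, had a median of 12.1 CPM in block 1 and 3.01 CPM in block 2. Its highest value was 62.5 CPM, in BRP538, a cell with only 2 of 13 S-phase genes.

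The G2/M core holds the kinase, cyclins and chromosome proteins of the entry into mitosis. All 7 of its genes were present in 4 or more cells of block 1, where 38.4% of all genes were. In block 2, 2 of 7 were present in 6 or more cells, near the 32.9% of all genes, and none was in block F. Cdk1, the kinase that triggers mitosis (chr10:69335146-69352938, minus strand, GRCm38), ran from 7.01 to 332 CPM (median 145) in block 1 and from 0 to 178 CPM (median 3.15) in block 2. It was 0 in all 8 cells of block F. BRP529 had 178 CPM and BRP541 33.3 CPM, but BRP534 (64.4 CPM) and BRP535 (43.0 CPM) were above BRP541 with only 1 and 2 mitotic genes present. Cdk1 alone thus did not single out the cells with the pattern.

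Mki67, which encodes the proliferation marker Ki-67 (chr7:135689784-135716361, minus strand, GRCm38), ran from 7.80 to 58.5 CPM (median 27.1) in block 1. In block 2 it was 48.9 CPM in BRP541, 46.2 CPM in BRP529 and 26.8 CPM in BRP528, and at or below 0.357 CPM in the other 9 cells. It was 0 in every cell of block F. Top2a, the topoisomerase that disentangles sister chromatids (chr11:98992943-99024189, minus strand, GRCm38), ran from 9.24 to 153 CPM (median 58.7) in block 1. In block 2 it was 200 CPM in BRP541, 96.1 CPM in BRP529 and 35.9 CPM in BRP542, and at or below 4.37 CPM in the other 9. The 3 cells of block 2 with Mki67 present and the 3 with Top2a present thus shared BRP529 and BRP541.

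Ccna2, cyclin A2, ran from 1.46 to 105 CPM (median 22.4) in block 1 and from 0.713 to 190 CPM (median 6.05) in block 2. It was present in 7 cells of block 2, more widely than Top2a or Mki67, and BRP529 was the highest. Ccnb1 and Ccnb2, the B-type cyclins that activate Cdk1, were present in 6 and 4 cells of block 1. BRP541 had 57.7 CPM of Ccnb1 but 3.07 CPM of Ccnb2, and BRP529 had 3.54 CPM of Ccnb1 but 17.2 CPM of Ccnb2. Foxm1, the factor that drives G2 and mitotic genes, was low even where present, with a median of 6.51 CPM in block 1 and a highest value of 21.2 CPM, in BRP569.

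The mitotic apparatus holds the kinases, kinetochore proteins and ubiquitin enzymes of chromosome segregation. In block 1, 4 of its 10 genes were present in 4 or more cells, namely Ube2c, Birc5, Cenpe and Cenpf, a share near the 38.4% of all genes in that block. Ube2c, the ubiquitin-conjugating enzyme of the anaphase-promoting complex, ran from 12.6 to 73.2 CPM (median 28.8) there. In block 2 it was present in BRP541 (52.7 CPM), BRP528 (22.5 CPM) and BRP529 (15.5 CPM), and at or below 0.255 CPM in the other 9. Birc5, which encodes survivin of the chromosomal passenger complex, had a median of 31.1 CPM in block 1 and was present in BRP541, BRP542 and BRP529 of block 2. Cenpf, a kinetochore protein, was present in 7 cells of block 2 and had like medians in blocks 1 and 2, 8.67 and 8.24 CPM.

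The kinases and checkpoint genes of mitosis were present in few cells, 1 to 5 each. Aurka, which encodes a spindle pole kinase, was present in BRP541 (13.4 CPM) and BRP567 (5.93 CPM). Aurkb, its relative in the passenger complex, was present in BRP529 alone, at 84.7 CPM, which made up 91.8% of all its counts. Cdc20, the activator of the anaphase-promoting complex, was 165 CPM in BRP541, and 82.2% of its counts came from that cell. It was present in 3 cells of block 1 at up to 13.1 CPM and in no other cell. Bub1, a checkpoint kinase, was 90.4 CPM in BRP541 and 27.9 CPM at its highest in block 1. Bub1b, which encodes the checkpoint protein BubR1, was present in BRP529 (34.4 CPM), BRP541 (21.8 CPM) and BRP542 (9.15 CPM), and in BRP569 (8.87 CPM) of block 1. Plk1, the polo-like kinase, was 68.5 CPM in F24 and at most 11.1 CPM in a cell of blocks 1 and 2.

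**Figure D4:**
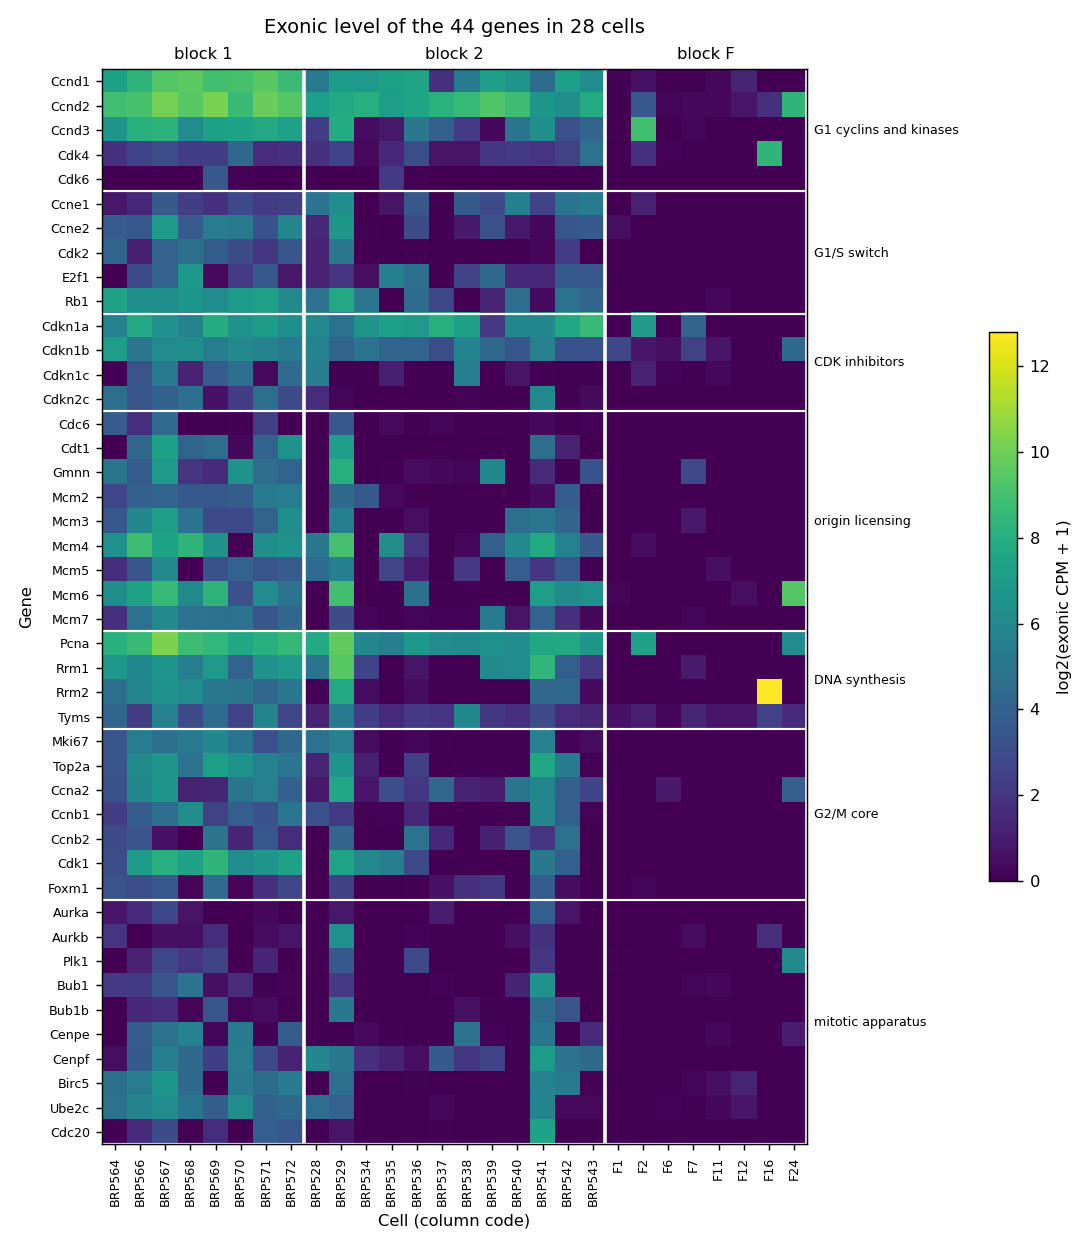
Level of each of the 44 genes (rows, grouped by role) in each of the 28 cells (columns, grouped by block), as log2(exonic CPM + 1) by colour. Block 1 and the cells BRP529, BRP541 and BRP542 of block 2 are filled across most groups. Exceptions are the G1/S switch in BRP541 and the mitotic apparatus in block 1 (median 4 of 10 genes present) and in BRP542 (3 of 10). Block F holds few isolated high values, the highest of them Rrm2 in F16 at 7048 CPM.

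BRP567, BRP529 and BRP541 differed in the balance of S-phase and mitotic genes, although the S-phase sum was the larger in each of them. In BRP570 of block 1 the mitotic sum (432 CPM) was larger than the S-phase sum (413 CPM). BRP567 of block 1 had 13 of 13 S-phase genes and 14 of 17 mitotic genes, with summed levels of 2582 and 805 CPM. BRP529 also had all 13 S-phase genes but 11 mitotic genes, with summed levels of 3274 and 744 CPM, and it was the highest of all cells in Mcm4, Rrm1, Gmnn, Ccna2 and Aurkb. BRP541 had 14 mitotic and 9 S-phase genes, with nearly equal summed levels of 969 and 989 CPM, and it was the highest of all cells in Top2a, Cdc20, Bub1, Cenpf and Aurka. BRP569 had the highest Cdk1 and Mki67 of all cells, yet only 35.9 CPM over the 10 genes of the mitotic apparatus, against 191 CPM in BRP570. Of the 8 cells with the mitotic pattern, only BRP541 had more than 13.1 CPM of Cdc20.

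Genes of the same pathways that are not on the list were read in the same way. Of 36 other genes of origins and replication forks, 27 were present in 4 or more cells of block 1, 13 in 6 or more cells of block 2 and 0 in 4 or more cells of block F. Over all genes, these shares were 38.4%, 32.9% and 4.26%, so the count in block 2 was near the background. Orc2 of the origin recognition complex was present in 22 cells, and Rpa1 of the single-strand binding protein and Dut, which removes dUTP, in 20 each. BRP567 had 32 and BRP529 30 of the 36 genes present, the highest counts in their blocks, and the other cells of block 2 had 6 to 22.

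Of 43 other mitotic genes, 28 were present in 4 or more cells of block 1, 5 in 6 or more cells of block 2 and 0 in block F, above the 38.4% of all genes in block 1 and below the 32.9% in block 2. BRP541 had 39 of the 43 present, more than any cell of block 1, where BRP567 had 33, and BRP529 had 31. The other 10 cells of block 2 had 3 to 15, the highest of them BRP528. Bub3, a checkpoint protein that also acts outside mitosis, was present in 22 cells, and the condensin subunits Smc4 and Smc2 in 16 and 15.

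Of 37 other CDK, cyclin and pocket protein genes, many of which act outside the cycle, 29, 22 and 2 were present in 4, 6 and 4 or more cells of blocks 1, 2 and F. The counts of blocks 1 and 2 were above the 38.4% and 32.9% of all genes, and that of block F was near its 4.26%. Cdk17 was present in 24 cells, the cyclin gene Ccni in 23, and Cdk7, which also serves in transcription, in 23. Blocks 1 and 2 were closer to each other in this list than in the mitotic list.

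The cells of block 2 with the mitotic pattern also carried markers of oligodendrocyte precursors beside those of neurons. Pdgfra, the growth factor receptor that defines these precursors, was 257 CPM in BRP529 and 200 CPM in BRP541, and at or below 1.32 CPM in every other cell of block 2. Cspg4, which encodes the NG2 proteoglycan, was 45.6 and 61.9 CPM in these cells and at or below 7.76 CPM in the others. The factor genes Olig1 (831 and 503 CPM) and Olig2 (143 and 122 CPM) were also highest there, against at most 84.8 and 47.4 CPM in the others. All 5 markers of that list were present in both cells, while no other cell of block 2 had more than 3, which was BRP528. The summed level of the 5 markers was highest in BRP529 and BRP541, and in the other 10 cells ran from 0.282 to 139 CPM.

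The neuronal markers were not absent from these cells. Snap25, a synaptic vesicle fusion protein, was 607 CPM in BRP529 and 3167 CPM in BRP541, and between 1353 and 3699 CPM in the other cells of block 2. Rbfox3, which encodes NeuN, was 66.8 and 64.8 CPM, within the range of 21.4 to 288 CPM of the others. BRP529 was low in the neurofilament genes, with 1.43 CPM of Nefm, which was 0 in BRP539, and 161 CPM of Nefl. Its Syt1 (1461 CPM) and Stmn2 (1957 CPM) lay within the range of the other cells of block 2. The sum of BRP529 over the 8 neuronal markers, 4900 CPM, was the lowest of block 2. In block 1, Rbfox3 was at most 0.152 CPM and Snap25 at most 42.4 CPM. BRP529 also had the astrocyte genes Aqp4 (418 CPM) and Gja1 (96.5 CPM), with all 8 astrocyte markers present, whereas BRP541 had 1 of 8. The part of these markers in the mitotic and S-phase patterns was not tested.

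BRP542, with the S-phase pattern and 8 of 17 mitotic genes, had none of the 5 precursor markers present and 2 of the 8 astrocyte markers, and all 8 neuronal markers were present in it. It had 32.3% of its counts in introns, against a median of 15.7% in block 2. BRP528, with 4 mitotic genes, had Gad1 at 1136 CPM, which encodes the enzyme that makes GABA, and no glutamatergic marker present. It also had Gfap (115 CPM), Aqp4 (142 CPM) and S100b (396 CPM), with 7 of 8 astrocyte markers present. Without BRP528, BRP529 and BRP541, 6 cells had the mitotic pattern and 9 the S-phase pattern. This choice of cells to leave out was made after their values were seen.

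**Figure D5:**
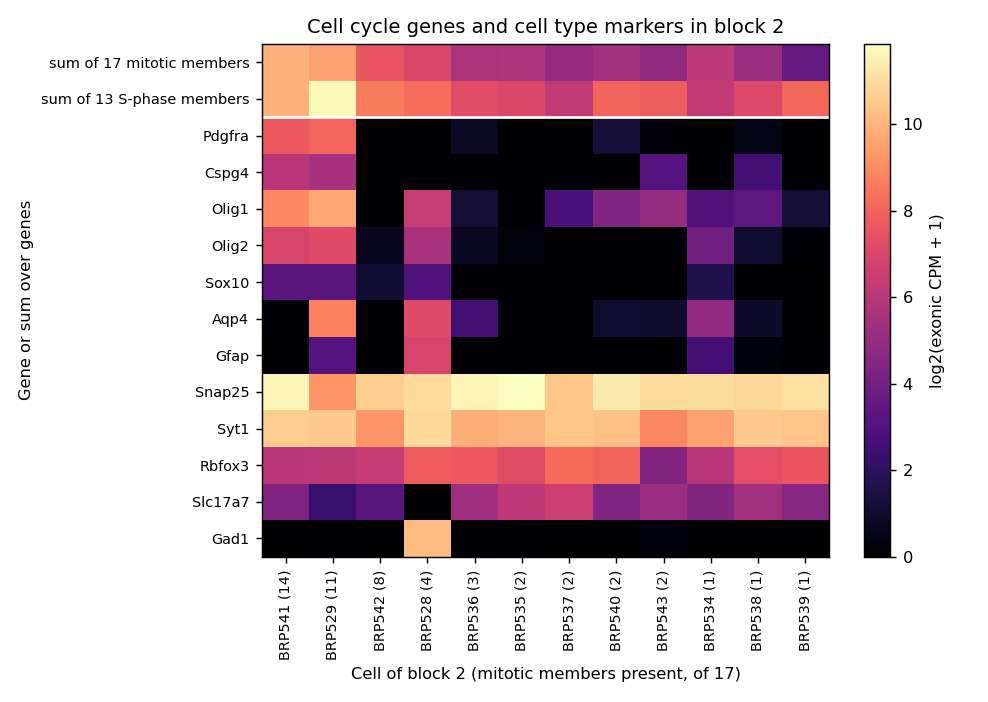
Summed level of the 17 mitotic and the 13 S-phase genes (top rows) and level of markers of oligodendrocyte precursors (Pdgfra to Sox10), astrocytes (Aqp4, Gfap) and neurons (Snap25 to Gad1) in the 12 cells of block 2, as log2(exonic CPM + 1) by colour. Cells are ordered by the number of mitotic genes present, in brackets, and BRP541 and BRP529 on the left combine Pdgfra at 200 and 257 CPM with neuronal genes.

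Block 1 held precursor and progenitor markers too, in every cell and not only in those with the mitotic pattern. Olig1 ran from 432 to 1048 CPM, Sox2 from 430 to 1415 CPM and Nes, the intermediate filament nestin of progenitors, from 244 to 609 CPM. Pdgfra ran from 6.42 to 75.1 CPM, below both BRP529 and BRP541.

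High values in block F were isolated. Apart from F24, no cell of block F had more than 1 gene of the mitotic and S-phase groups present. F24 had 6 of the 44 genes present, the most in its block, among them Mcm6 (657 CPM), Ccnd2 (332 CPM), Pcna (71.3 CPM), Plk1 (68.5 CPM) and Ccna2 (13.7 CPM). In F24, Mki67, Top2a, Cdk1 and Ccnb1 were all at 0, where 3 counts would be 1.42 CPM. In F16, Rrm2 at 7048 CPM and Cdk4 at 332 CPM were the only genes of the list present. The microglial gene Csf1r stood at 2093 CPM in the same cell, but it was the only 1 of the 6 microglial markers present there. These libraries were shallow, at 2116359 exonic counts in F24 and 838343 in F16.

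Intronic counts, which can come from unspliced transcripts, were few for most of the list, and their source was not tested. Of the 17 mitotic genes, 1 to 5 had 3 or more intronic counts in a cell of block 1, 1 to 5 in a cell of block 2 and 0 to 4 in a cell of block F. Cdk1 had 122 intronic counts in F11 and 76 in F12, where it had no exonic count. F11 and F12 were alike in several other genes, and whether they are separate cells was not tested. Top2a, Bub1b, Ube2c, Cdc20 and Cdkn1c had no intronic count in any of the 28 cells. For Top2a, all 73 genes on the same strand within 2 Mb in the intronic table were at 0 as well, and the same held for 36 of 36 neighbours of Bub1b and 42 of 42 of Ube2c. Around Cdc20 (5 of 38) and Cdkn1c (6 of 34) most neighbours had counts. The zeros of Top2a, Bub1b and Ube2c were thus shared by every same-strand neighbour searched, and they are not read here as a measure of their unspliced transcripts. On the other strand near Top2a, Cdc6 had 18 intronic counts, and only 3 of its 44 same-strand neighbours within 2 Mb were at 0.

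Ccnb1, Cenpe and Cdk6 had more intronic than exonic counts. For Ccnb1, 5597 intronic counts faced 4595 exonic ones, and most lay in different cells. BRP539 (2397), BRP538 (1680) and BRP540 (1046) held most intronic counts of Ccnb1, with 0, 0 and 1 exonic counts, whereas BRP568 and BRP541 held 1301 and 1015 exonic counts and 1 intronic count each. BRP542 held both, with 281 intronic and 275 exonic counts. For Cenpe, 3577 of 4486 intronic counts lay in BRP528, which had 1 exonic count. Ccnb1 has a named pseudogene, and the part of such copies was not tested. Ccnb2, Ccnd3, Tyms and Pcna have named pseudogenes as well.

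Some genes of the list overlap coding genes on the other strand in the annotation, Ccnd1 with LTO1, Ccnd3 with Bysl, Cdk4 with Tspan31, Ccne2 with Ints8, Cdk2 with Pmel, Rb1 with Lpar6 and Rcbtb2, Mcm7 with Ap4m1 and Cops6, Ccna2 with Exosc9, Ube2c with Tnnc2 and Cdc20 with Elovl1. Whether the counting used the strand is not given in the sources used here, so reads of such overlapping genes cannot be told apart. Cdt1 (with Gm20388) and Foxm1 (with Gm44596 and Tex52) overlap genes on their own strand, where no strand setting would separate the reads.

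Promoters of the list were searched for the letters of known elements of cell cycle genes. RefSeq start sites on GRCm38.p6 were found for 34 of the 44 genes, with a window from 250 bases before to 50 bases after each start. The cell cycle homology region (CHR, TTTGAA) is bound by complexes that hold mitotic genes silent until G2. It was found on either strand in 10 of 14 mitotic genes (71.4%), in 1 of 20 other genes of the list (5.00%), and in 20.2% of 27025 genes. E2F letters (TTTCCCGC, TTTGGCGC or TTTGGCGG) were found in 6 of 11 S-phase genes (Cdc6, Cdt1, Mcm3, Mcm5, Mcm6 and Mcm7), in none of the 14 mitotic genes, and in 2.39% of all genes. CCAAT, the box of the factor NF-Y, was found in 13 of 14 mitotic genes (92.9%), in 60% of the other genes of the list and in 41.1% of all genes. The letters of an element do not contain those of another, although neighbouring matches can share bases. A match is a description of the sequence and not a bound site.

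The 110 bases before the start are shown for 4 mitotic genes described above and for Mcm6, as an example of the S-phase genes. Capitals mark CHR and CCAAT letters on either strand, and for Mcm6 the E2F letters and CCAAT. The windows lie at chr10:69352913-69353022 (Cdk1, minus strand), chr11:99024190-99024299 (Top2a, minus), chr4:118437344-118437453 (Cdc20, minus), chr2:164769819-164769928 (Ube2c, plus) and chr1:128359706-128359815 (Mcm6, minus), and are written 5′ to 3′ on the strand of the gene.
Cdk1: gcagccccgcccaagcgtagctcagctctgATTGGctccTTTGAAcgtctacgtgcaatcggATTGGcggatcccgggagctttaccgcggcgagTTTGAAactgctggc
Top2a: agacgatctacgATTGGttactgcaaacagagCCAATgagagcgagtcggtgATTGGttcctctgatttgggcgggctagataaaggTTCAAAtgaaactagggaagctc
Cdc20: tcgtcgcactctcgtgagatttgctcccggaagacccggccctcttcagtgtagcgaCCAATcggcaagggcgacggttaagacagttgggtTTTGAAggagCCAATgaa
Ube2c: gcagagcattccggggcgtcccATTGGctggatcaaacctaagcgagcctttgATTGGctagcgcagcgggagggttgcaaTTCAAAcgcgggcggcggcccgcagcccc
Mcm6: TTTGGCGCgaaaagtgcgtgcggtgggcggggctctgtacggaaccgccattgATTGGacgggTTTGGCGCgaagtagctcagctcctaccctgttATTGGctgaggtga

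The 4 mitotic windows were taken from the 10 genes with a CHR match, so the letters they share follow from the choice. Mcm6 has 2 E2F matches and 2 CCAAT boxes in its window and no CHR.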

How the data were processed

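RNA from 28 single mouse cells was sequenced. The deposited values are raw counts, whole numbers without normalization, in a table over exons and a table over introns. The submitters' processing notes name STAR 2.4.0, bcl2fastq 2.17 and mm10. The counting tool, gene annotation and strand setting are not given in the sources used here, and counts are of reads, not of unique molecules. None of the 28 columns could be matched to a sample label, so all 28 were described by code and no test between groups or blocks was made. For the same reason no mean, SD or p-value is given.

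Levels are exonic counts per 1000000 exonic counts of the cell (CPM). A gene was present at 5 CPM and 10 counts or more. The floor for a count of 0 is 3 counts, which covers counting error only. Per-kilobase levels use exon lengths of GENCODE M21 (GRCm38). Promoter sequences are those of RefSeq on GRCm38.p6. In each of the 378 pairs of cells, exonic counts differed by far more than sampling noise (chi-square over its degrees of freedom 17.6 or more). This measure too covers counting error only. F11 and F12 shared the oligodendrocyte gene Mobp (1436 and 1293 CPM), at most 0.337 CPM in the other cells, and high Orc2 (473 and 521 CPM). They were also close in Snap25 (1654 and 1439 CPM), Syt1 (180 and 150 CPM) and Cdk5r1 (210 and 218 CPM). They were unlike in Map2 (39.9 and 0 CPM) and Gad1 (18.9 and 0.739 CPM). Why these columns were alike, and whether they come from separate cells, was not tested.

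The members, the role lists, the pathway lists, the marker lists and the limits of the patterns were chosen with earlier results of these data known. Genes given by value are, in each role list, the 2 present in most and the 1 present in fewest cells, the D-type cyclins, the CDK inhibitors, Mki67, Top2a, Cdk1 and Pcna, the 3 most widely present genes of each pathway list, and members without intronic counts or with more intronic than exonic counts. Other members named with values were chosen after their values were seen. The mitotic call was run on simulated counts as a check of the code. The mitotic genes were absent there except in cells where they were planted well above the limit. Its outcome therefore followed from the setting and says nothing about cells near the limits. The S-phase call was not simulated.

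Alternatives were other levels and numbers of genes, exonic plus intronic counts, TMM factors of edgeR 4.0.16 and size factors of DESeq2 1.42.0 (R 4.3.3) as scalings only, the 10 genes with most counts left out, thinning to 800000 counts, no count minimum, and each cell left out in turn. Leaving out BRP528, BRP529 and BRP541 was added after seeing the data. Python 3.11.15, numpy 2.4.6, pandas 2.3.3 and matplotlib 3.10.9 were used.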

Additional observations from a re-analysis of the deposited data

Results flagged for a closer look

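Summed levels of each role list and the numbers of mitotic and S-phase genes present were searched, within block 1 and block F, for a cell far from the others of its block by Dixon's test. Of 18 such searches, 7 passed the critical value of 0.526 for 8 cells, where chance would pass about 1 in 20 for independent, continuous values. That rate does not hold for the measures of block F that lie at or near 0, or for several measures of the same cell. Block 2, with 12 cells, was not searched. Sums are given as log2(summed CPM + 1).

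In block 1, BRP567 stood above the others in DNA synthesis at 10.51 (block median 9.03), and BRP564 stood below the others in the G2/M core at 5.77 (block median 8.16). In block F, F24 stood apart in 4 measures. It had 2 mitotic genes present where the other 7 cells had 0, and its sums were 9.36 for origin licensing, 3.88 for the G2/M core and 6.14 for the mitotic apparatus. Each of the 3 sums of F24 rested mainly on a single gene, Mcm6, Ccna2 and Plk1. F2 was highest in the G1/S switch at 1.18, with no gene of that list present.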

How the results depend on the processing

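The number of cells with the mitotic pattern was 8 and lay between 7 (at 10 CPM) and 11 (6 of 17 genes) under the other settings, with the exception of 12 of 17 genes, which left 2 cells, and of the removal of BRP528, BRP529 and BRP541, which left 6. BRP571 lost the pattern at 10 CPM. BRP569 gained it at 1 CPM, with intronic counts added and after thinning, and BRP564 at 1 CPM and after thinning. The number with the S-phase pattern was 11 and lay between 10 and 13, or was 9 without those 3 cells. The median number of mitotic genes in block 1 rose from 9.5 to 12 at 1 CPM, and the median number of S-phase genes there fell from 11 to 9.5 at 10 CPM. In block 2 the median number of mitotic genes went from 2 to 4 at 1 CPM, and to 1 at 10 CPM and with DESeq2 size factors. Leaving out each cell in turn gave 7 to 8 cells with the mitotic and 10 to 11 with the S-phase pattern. The medians were then 9 to 10 mitotic and 11 to 11 S-phase genes in block 1, 2 to 2 and 4 to 4 in block 2, and 0 to 0 and 0 to 1 in block F. TMM factors moved the median gene by −0.57, −0.40 and 0.69 (log2) in blocks 1, 2 and F, DESeq2 size factors by −0.19, −1.01 and 1.69, and intronic counts by −0.10, −0.15 and −0.65. The spread between the cells of a block was taken as 1 SD, which single high cells widen. A block median of 0, as for most genes in block F, cannot be moved by a scaling. An unmoved median is therefore no sign of a stable level. Of the block medians of single genes, Cdk6 in block 1 and 7 genes in block F moved beyond the spread between cells with intronic counts added, and Tyms in block F with DESeq2 size factors. The cause was not tested, apart from the intronic counts being added. No paired analysis was possible because the columns carry no replicate number. Depth limits what a level of 0 can show most in F16, where 3 counts are 3.58 CPM and the minimum of 10 counts lies above 5 CPM.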
